A study of Homo sapiens with 28 samples.

Results

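PLC/PRF/5 is a human hepatoma cell line that carries integrated hepatitis B virus DNA. 4 tumours of it, grown in ovo on the chorioallantoic membrane of chick eggs, were compared with the 12 tumours of 3 other human hepatoma lines, HepG2, Hep3B and HuH7, grown in the same way. The members were taken from the labels: the 4 PLC/PRF/5 tumours are 4 of 28 libraries. The other lines gave 4 tumours each and were averaged with equal weight per line. Cultures of the same lines, 3 libraries of PLC/PRF/5 and 9 of the other lines (3 each), were grown in vitro and gave the same line comparison without a host. The graft was placed at embryonic day 9 in eggs of the White leghorn breed, and the nodules were harvested at day 18. All 16 tumours went through the same RNA kit, and all 12 cultures through a smaller one, so a line difference within a setting is not a difference of kit, whereas the kit and the setting cannot be told apart. No treatment or genotype is given beyond the line. Each line is a single line and not a set of independent lines, and the labels do not say whether the replicates of a group came from separate eggs or cultures, so p-values measure the spread between libraries.

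The chorioallantoic membrane is a vascular membrane on which grafted tumour cells form solid nodules that are fed by the embryo's vessels. Hepatoma lines keep the programme of the hepatocyte to different degrees: secreted plasma proteins, the transcription factors that drive them, and metabolic enzymes of the liver. Cells in a solid nodule can also meet low oxygen. The transcription factors HIF1A and EPAS1 then raise glucose transporters, glycolytic enzymes and enzymes such as carbonic anhydrase IX, and sterol shortage raises cholesterol synthesis through SREBF2. In bulk tumours, a lower level of a transcript and a smaller share of the cells that carry it cannot be told apart.

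Expression was read with a targeted kit of 18961 human amplicons, of which 13100 passed the filter and were tested. Levels are given as CPM (reads scaled to a common library total), adjusted by TMM (a factor per library that aligns most genes). The PLC/PRF/5 tumours had 8071304 to 8580088 reads and the other tumours 6085750 to 15086465, so that 3 reads stood for 0.199 to 0.493 CPM in the tumours before this scaling. The log2 levels of the 4 PLC/PRF/5 tumours correlated pairwise at 0.957 to 0.993. Differences are in log2(CPM + 1), which understates the change of low genes, and 0.05 is the adjusted p below which a difference counts as called. An amplicon measures its own gene between samples, so levels are not compared between genes. The liver origin in the label was not seen in the classical marker: ALB, the main plasma protein of the hepatocyte, was at 0.101, 0.167, 0 and 0.325 CPM in the 4 PLC/PRF/5 tumours, near the level of 3 reads or below it. The amplicon of ALB was also modest in the other tumours, at 0.858 to 104 CPM, with 0.858 to 19.2 CPM in those of HuH7. Markers of other cell types were low. The summed level of 12 endothelial markers was 47.69 to 105.1 CPM in PLC/PRF/5 tumours and 9.701 to 66.89 in the other tumours, with KDR, EMCN, ERG and ROBO4 at 0 and most of the sum from ENG. That of 12 fibroblast markers was 64.98 to 91.29 CPM and 26.1 to 861.6 CPM in the same order, of 12 leukocyte markers 36.25 to 55.61 and 11.44 to 70.6, of 6 erythroid markers 0 to 0.453 and 0 to 3.059, and of 12 stratified epithelium markers 35.93 to 69.27 and 0.1499 to 12.87, the last mostly from KRT13. In PLC/PRF/5 cultures, grown without a host, the 5 sums were 87.71 to 94.14, 146.1 to 199.2, 40.55 to 51.14, 0 to 0.097 and 16.55 to 25.81 CPM in that order. The part of other cell types in the results was not tested.

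PLC/PRF/5 tumours differed from the mean of the other tumours in most tested genes (69.5%). Limma called 4617 genes higher (35.2% of those tested) and 4492 lower (34.3%), and 2713 and 2777 of them differed by at least 2-fold. The same lines in culture differed in 55.1% of tested genes, 3227 genes higher (24.6%) and 3988 lower (30.4%). 2800 genes were higher and 3316 lower in PLC/PRF/5 in both settings. Against HepG2 tumours alone, 3860 genes were higher (29.5%) and 3384 lower (25.8%). Against Hep3B tumours the numbers were 4682 (35.7%) and 4003 (30.6%), and against HuH7 tumours 4147 (31.7%) and 4190 (32%). 29.7% of tested genes differed the same way from all 3 lines: 2152 genes were higher in PLC/PRF/5 tumours than in all 3 lines (16.4%) and 1742 lower than in all 3 (13.3%). All 4 PLC/PRF/5 tumours lay above all 12 other tumours in 1609 genes (12.3%) and below all of them in 1424 (10.9%). With total counts in place of TMM, the median difference of all genes was 0.518, against 0.0753 with TMM, and 6431 genes were called higher and 3274 lower. The balance of higher and lower calls thus depends on the scaling.

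The line difference itself differed between tumours and cultures in 2238 genes (17.1%), 1202 toward PLC/PRF/5 in ovo (9.18%) and 1036 away from it (7.91%), by limma's test of the interaction (the line difference in ovo minus that in vitro). With total counts these were 1747 and 830. Without the 4 tumours numbered 3, whose deviations from their group means correlated pairwise at 0.12 to 0.86, they were 1849 and 1683. A difference was counted as in ovo only when it was called in the tumours, was within 0.5 of 0 and not called in the cultures, and the interaction was called. 272 genes were higher in ovo only (2.08%) and 268 lower (2.05%), together 4.12%. A difference was counted as reversed when it was called in opposite directions in the 2 settings and the interaction was called. 73 genes were higher in PLC/PRF/5 tumours but lower in its cultures (0.557%), and 47 were the other way round (0.359%), together 0.916%. Without Hep3B in ovo replicate 1 the number of genes higher in ovo only was 439, and without PLC/PRF/5 in vitro replicate 1 or 3 the number of genes reversed toward lower was 26 or 31.

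**Figure D1:**
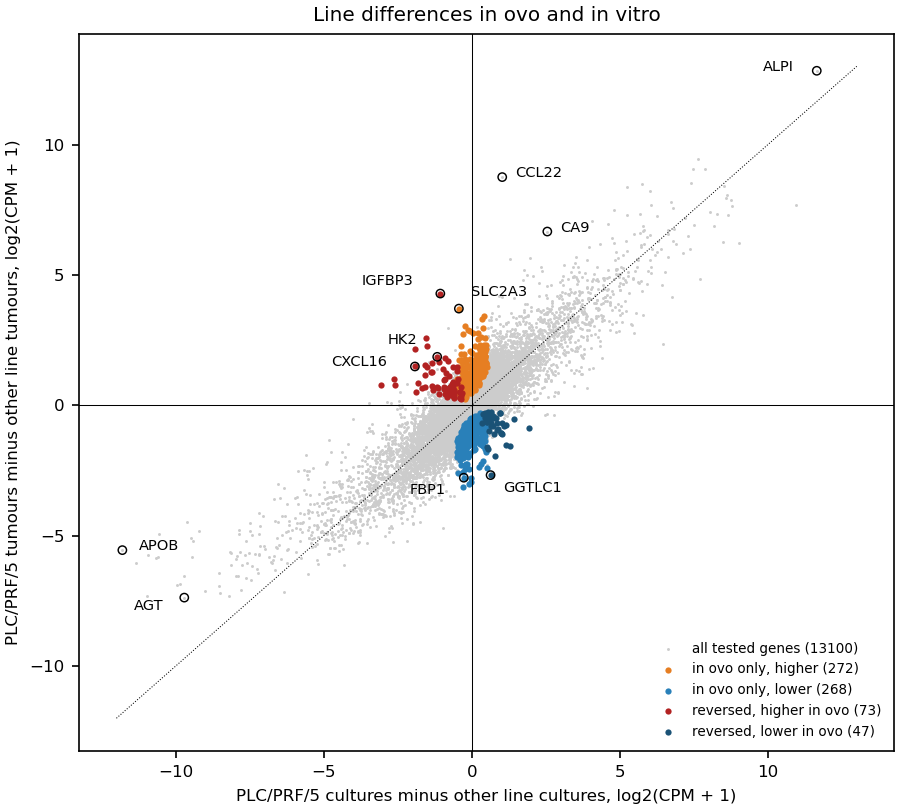
Each point is 1 of the 13100 tested genes, placed by its difference between PLC/PRF/5 and the mean of the other lines in cultures (horizontal axis) and in tumours (vertical axis), both in log2(CPM + 1); the dotted line marks equal differences. Most genes lie along the dotted line, the 272 and 268 in ovo only genes form a column at a culture difference near 0, and CCL22 and CA9 stand far above the line.

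Among the genes higher in ovo only and among the reversed genes, the median moved between culture and tumour in PLC/PRF/5 as well as in the other lines; among the genes lower in ovo only it moved in the other lines alone. Over the 272 genes higher in ovo only, the median change of PLC/PRF/5 from culture to tumour was 0.54 and that of the other lines was -0.52 (log2). 70 of them were at least 2-fold higher in PLC/PRF/5 tumours than in its cultures, and 66 were at least 2-fold lower in the tumours than in the cultures of the other lines on average. In 142 of the 272 all 3 other lines were lower in ovo. Over the 268 genes lower in ovo only, the median change of PLC/PRF/5 was 0 and that of the other lines 1.01. 13 of them were at least 2-fold lower in PLC/PRF/5 tumours than in its cultures, and 137 were at least 2-fold higher in the tumours than in the cultures of the other lines on average. In 193 of the 268 all 3 other lines were higher in ovo. Over the 73 genes reversed toward higher, PLC/PRF/5 was higher in ovo by a median of 0.99 while the other lines were lower by a median of 0.63, and over the 47 reversed toward lower the medians were -0.63 and 0.71. These values describe genes chosen by the same contrasts and carry no test. Over all tested genes the medians were 0.07 for PLC/PRF/5 and -0.01 for the other lines.

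A low level of transcripts typical of HepG2 was present in all PLC/PRF/5 tumours and bears on any gene that is abundant in HepG2. 9 genes were under 1 CPM in every PLC/PRF/5 culture and over 1000 CPM in HepG2 tumours: APOA1, SERPIND1, A2M, AHSG, APOH, PEG3, HIST1H3C, SERPINA3 and PLIN2. In PLC/PRF/5 tumours they lay at 0.787% to 1.36% of the HepG2 tumour level, with a median of 1.06%. All 9 were highest in replicate 4, where the median was 1.59%, against 0.824%, 0.766% and 0.841% in replicates 1, 2 and 3. Fitted as a mixture over 101 such genes silent in PLC/PRF/5 cultures, the share of the HepG2 tumour profile was 1.07%, 0.984%, 0.984% and 1.68% in replicates 1 to 4, and the shares of Hep3B and HuH7 were at most 0.457%. The value is small, but for genes at very high levels in HepG2 it exceeds 100 CPM. The source of these reads was not tested. Levels below are as measured, and the interactions of hepatocyte genes are given also with the fitted share subtracted, an alternative chosen after seeing the data.

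**Figure D2:**
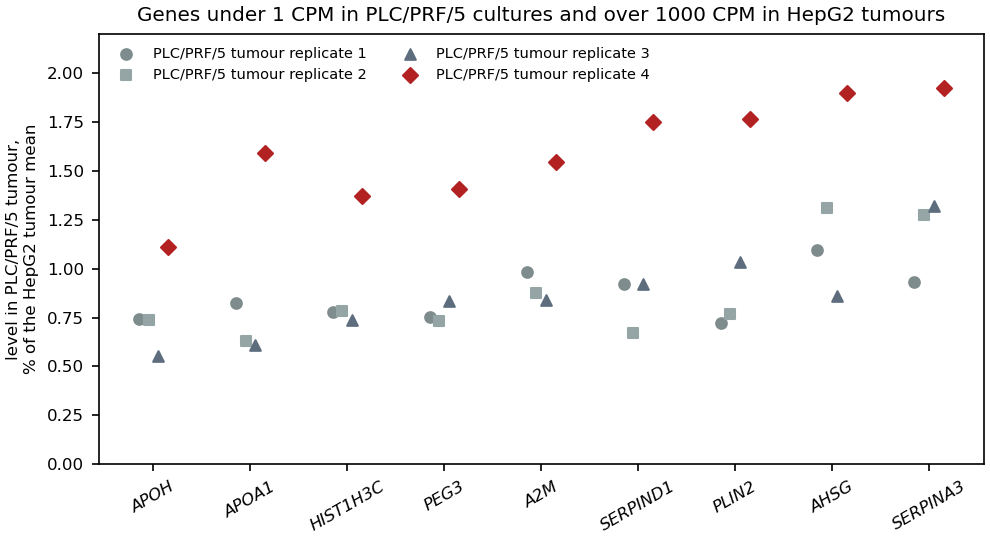
The level of 9 genes in each PLC/PRF/5 tumour, as a percent of the mean HepG2 tumour level (vertical axis), for genes that are under 1 CPM in PLC/PRF/5 cultures and over 1000 CPM in HepG2 tumours. The 9 genes share a narrow range around 1%, and replicate 4 (diamonds) is the highest in each.

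The 10 genes highest in PLC/PRF/5 tumours were mostly surface, secreted and structural proteins, at high levels where the other lines had little or none. ALPI, the intestinal alkaline phosphatase, was at 25950, 9445, 17060 and 28510 CPM in the 4 PLC/PRF/5 tumours, and the 12 other tumours had 0.15, 1.75 and 5.64 CPM as their lowest, median and highest values. The difference was 12.83 ± 0.31 (SE, adjusted p = 2.0e-21), the largest of all tested genes. It was also high in the cultures of PLC/PRF/5, at 8697, 4994 and 8649 CPM. BACE2, an aspartyl protease, had 572, 576, 684 and 586 CPM in PLC/PRF/5 tumours against 0, 0.0425 and 0.612 CPM as lowest, median and highest of the others. KRT17, a keratin of basal epithelia, had 2136, 735, 1784 and 1717 CPM in PLC/PRF/5 tumours, with 0, 0.489 and 6.54 CPM in the others by the same measures. The rule that picked the 10 genes required that the groups do not overlap. The differences of BACE2 and KRT17 were 9.08 ± 0.12 (SE, adjusted p = 8.6e-26) and 9.43 ± 0.23 (SE, adjusted p = 2.3e-21). The KRT17 amplicon has 147 to 150 of its 157 bases in common with KRT17 pseudogenes, so that reads of these could have been counted with it.

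CCL22, a chemokine that attracts regulatory T cells, was the gene among the 10 highest whose difference depended most on the setting. It had 903, 333, 399 and 626 CPM in the 4 PLC/PRF/5 tumours and 0, 0.166 and 0.774 CPM as lowest, median and highest of the other tumours. All 4 PLC/PRF/5 tumours were thus above 300 CPM and all 12 others under 1 CPM. PLC/PRF/5 cultures held 1.94, 1.24 and 2.57 CPM, and cultures of the other lines 0 to 2.2 CPM. The difference was 8.75 ± 0.20 (SE, adjusted p = 4.3e-22) in ovo and 1.03 ± 0.23 (SE, adjusted p = 3.8e-04) in vitro, and the interaction was 7.72 ± 0.30 (SE, adjusted p = 5.1e-15). COL15A1, the alpha chain of basement membrane collagen XV, had 327, 237, 311 and 486 CPM in the PLC/PRF/5 tumours and 0 in all 12 others, which is at least 422-fold higher when set against 3 reads in the library with the highest such level (0.806 CPM). PLC/PRF/5 cultures held 43.4, 26.2 and 45.2 CPM of it. Its interaction of 3.11 ± 0.22 (SE, adjusted p = 2.1e-10) was not called by edgeR's count test on the recovered reads (log2 value 3.15, adjusted p = 1), where both groups of other lines are at 0, or by DESeq2's (adjusted p = 0.72).

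The amplicons behind these CCL22 and COL15A1 values are shown because each lies across exon junctions, so that a spliced transcript is what they read; capitals mark the 5 bases on each side of a junction inside the amplicon (fewer at an end). Both are wholly coding and were matched exactly to GENCODE 29 transcripts on GRCh38 (hg38). The CCL22 amplicon spans chr16:57360446-57363513 on the plus strand, from exon 2 to exon 3 of 3. The COL15A1 amplicon spans chr9:99022149-99024885 on the plus strand, from exon 13 to exon 15 of 42.
CCL22: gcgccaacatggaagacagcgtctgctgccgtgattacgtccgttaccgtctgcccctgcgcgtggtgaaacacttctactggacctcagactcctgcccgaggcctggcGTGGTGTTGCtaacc
COL15A1: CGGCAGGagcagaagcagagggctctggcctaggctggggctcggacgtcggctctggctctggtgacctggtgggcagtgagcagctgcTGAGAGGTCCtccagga

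Of the other genes among the 10 highest, PFKP encodes the platelet form of phosphofructokinase, the enzyme of the committed step of glycolysis. It was at 2775, 1335, 2610 and 2431 CPM in PLC/PRF/5 tumours, with 0.234, 2.9 and 20.2 CPM as lowest, median and highest of the others. SLPI, a secreted inhibitor of leukocyte proteases, ranged from 449 to 737 CPM in PLC/PRF/5 tumours and from 0 to 1.89 CPM in the others. MSLN, mesothelin, ranged from 504 to 860.3 CPM and from 0 to 3.41 CPM in the same order, and NPTX1, neuronal pentraxin, from 325 to 534 CPM and from 0 to 0.751 CPM. For all 3 the groups were far apart. PLP2, a membrane proteolipid, ranged from 875 to 1485 CPM in PLC/PRF/5 tumours and from 0.269 to 8.04 CPM in the others, with close differences in the 2 settings (8.42 in ovo and 8.53 in vitro). MSLN was the more setting-dependent, at 8.49 in ovo and 5.74 in vitro, with an interaction of 2.75 ± 0.23 (SE, adjusted p = 4.8e-09) that edgeR's count test did not call (adjusted p = 1).

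**Figure D3:**
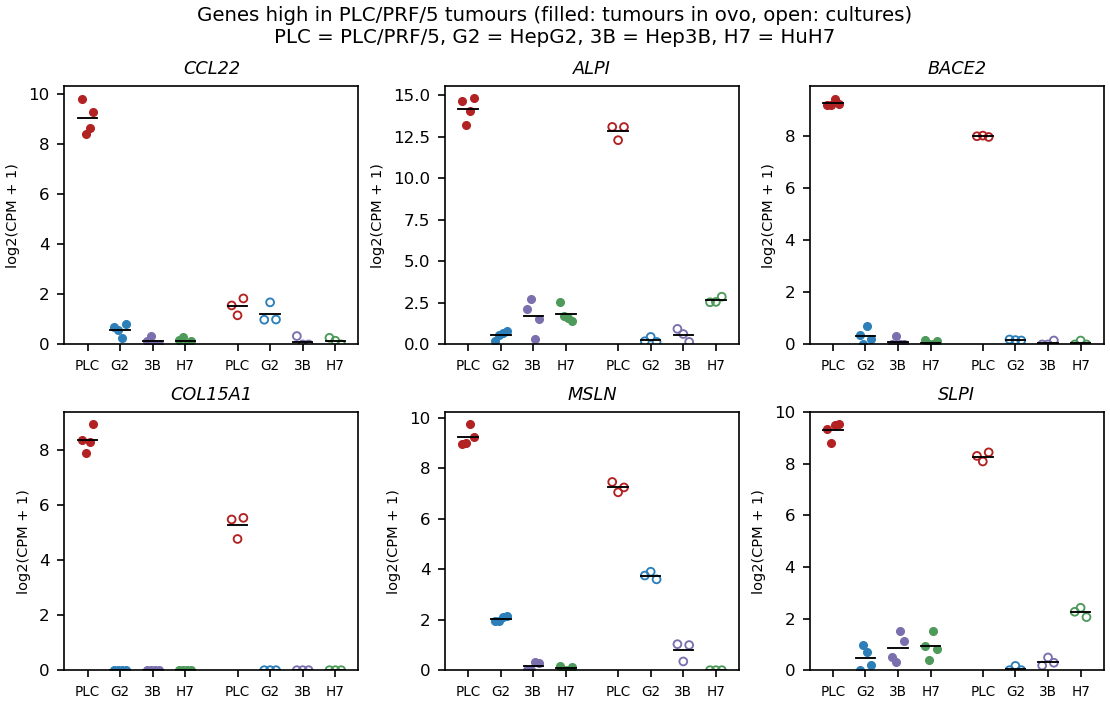
Level in each library, as log2(CPM + 1) (vertical axis), of 6 genes high in PLC/PRF/5 tumours; filled points are tumours in ovo, open points cultures, and the bar is the group's mean. CCL22 is high in the 4 PLC/PRF/5 tumours but at 1.24 to 2.57 CPM in the 3 PLC/PRF/5 cultures, whereas the other 5 genes are high in both settings of that line.

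Genes of the biliary and stratified epithelium, of adhesion and of the basement membrane differed in both directions. KRT7, a keratin of bile duct cells, had 158, 203, 123 and 171 CPM in PLC/PRF/5 tumours and 0, 0 and 0.256 CPM as lowest, median and highest of the others. In PLC/PRF/5 cultures it was at 420.5, 364 and 449 CPM. The interaction of -1.33 ± 0.18 (SE, adjusted p = 9.2e-06) was not called by edgeR's or DESeq2's count test (adjusted p = 1 and 0.28). MUC1, a membrane mucin, ranged from 218 to 461 CPM and 0 to 15.1 CPM in the same order. In the list of keratins and biliary markers, 10 of 18 tested genes were higher in PLC/PRF/5 tumours and 8 lower (median 0.98, against 0.08 over all tested genes). The shares of all tested genes were 35.2% and 34.3%. KRT19, another biliary keratin, was lower, at 224 to 554 CPM in PLC/PRF/5 tumours and 255 to 4795 CPM in the others (-1.09 ± 0.33 SE, adjusted p = 0.0059). These ranges overlap, and the call was lost without PLC/PRF/5 in ovo replicate 2 (adjusted p = 0.054) and without HuH7 among the other lines (adjusted p = 0.35).

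ITGA3 and ITGB4, the laminin-binding integrin chains, were at 269.7 to 584 and 597 to 1584 CPM in PLC/PRF/5 tumours, against 0.938 to 43.1 and 9.29 to 109 CPM in the others. Of 15 tested integrins, 8 were higher and 5 lower in PLC/PRF/5 tumours (median 1.36), and in culture the counts were 5 and 6 (median 0.07). Of all tested genes, 35.2% were higher and 34.3% lower in tumours, and 24.6% and 30.4% in culture. LAMB3, a chain of laminin 332, was at 1431, 639.7, 1666 and 1186 CPM in PLC/PRF/5 tumours and 0.6, 3.27 and 44.1 CPM as lowest, median and highest of the others, and COL4A2 was at 159 to 470.4 and 0 to 5.01 CPM in the same order. Within the same list of 29 basement membrane and matrix genes, 12 were higher and 14 lower. FN1, fibronectin, was at 2.31, 3.01, 2.83 and 6.17 CPM in PLC/PRF/5 tumours and 73.3, 174 and 407 CPM in the others (-5.38 ± 0.22 SE, adjusted p = 5.1e-17), and NID1, nidogen, at 2.42 to 5.55 and 334 to 2901 CPM. CD44, the hyaluronan receptor, was at 414, 209, 563 and 458 CPM in PLC/PRF/5 tumours, with 0, 0.262 and 3.26 CPM as lowest, median and highest of the others, and AXL, a receptor tyrosine kinase of mesenchymal cells, at 505 to 575 and 0.424 to 9.13 CPM. CDH1, E-cadherin, was at 0, 0.501, 0.227 and 0.866 CPM in PLC/PRF/5 tumours and at 9.99, 70.4 and 134 CPM by the same measures in the others (-5.10 ± 0.23 SE, adjusted p = 3.9e-16). For these 3 genes the groups did not overlap and the culture difference had the same sign (8.63, 6.80 and -4.68). In the mesenchymal switch list, which holds AXL and FN1, 11 of 23 tested genes were higher and 9 lower in PLC/PRF/5 tumours. In the list of epithelial junctions and polarity, which holds CDH1, 9 of 27 were higher and 12 lower.

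The 10 genes lowest in PLC/PRF/5 tumours were mostly genes known for their roles in the hepatocyte. AGT, angiotensinogen, was at 36.1, 29.4, 34.3 and 57.2 CPM in PLC/PRF/5 tumours and from 1212 to 41480 CPM in the others, with a difference of -7.37 ± 0.15 (SE, adjusted p = 9.3e-23). A1CF, a cofactor of APOB RNA editing, was at 2.92, 2.005, 6.57 and 9.41 CPM, against 332, 848 and 2666 CPM in the others. IGF2, the fetal insulin-like growth factor, was at 458, 266, 299.5 and 809.9 CPM, with 4389, 70810 and 359500 CPM in the others. The rule that picked these genes required that no PLC/PRF/5 tumour reach the lowest of the other tumours. The further genes among the 10 lowest were the transcription regulators NR0B2 (-7.20), ONECUT1 (-7.14) and PROX1 (-6.92), the coagulation proteins F7 (-7.08) and SERPIND1 (-6.86), the lipid droplet protein PLIN2 (-6.89) and NID1 (-7.11), all as log2 differences in ovo. PLC/PRF/5 cultures held less of AGT (0.971, 0.285 and 1.4 CPM) and of IGF2 (4.37, 4.85 and 12.7 CPM). SERPIND1 and PLIN2 are among the 9 genes above, at 1.06% and 1.07% of the HepG2 tumour level. The tumour levels and differences of these 10 genes are as measured, and the part of HepG2-type reads in them was not tested.

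All 26 tested hepatocyte secreted proteins were lower in PLC/PRF/5 tumours (median -4.71) and all 26 lower in its cultures (median -5.93). Of all tested genes, 34.3% were lower and 35.2% higher in tumours, and 30.4% were lower and 24.6% higher in cultures. Of 22 hepatocyte transcription factors, 21 were lower and 1 higher in tumours. Among 23 coagulation genes 19 were lower and 2 higher, among 20 apolipoprotein genes 17 and 3, among 21 drug metabolism genes 18 and 1, among 18 bile acid genes 15 and 3, and among 21 genes for the urea cycle or amino acid breakdown 15 and 2. Among 20 oncofetal and progenitor markers 18 were lower and 1, CD44, higher. These counts are against the mean of the other lines. Fewer genes were lower than in each other line taken alone: 18 secreted proteins (0 higher), 14 transcription factors (1), 16 coagulation genes (2) and 10 apolipoprotein genes (2). For the drug metabolism, bile acid, urea cycle and oncofetal lists they were 8 (0 higher), 10 (1), 9 (2) and 12 (1). Of all tested genes, 13.3% were lower than in each line and 16.4% higher. GPC3, an oncofetal proteoglycan, was at 33.3, 20.1, 24.4 and 68.3 CPM in PLC/PRF/5 tumours and 406, 2686 and 4911 CPM in the others, and FGFR3 at 45.98 to 83.1 and 1231 to 2309 CPM. GLUL, glutamine synthetase and a target of beta-catenin in liver, was at 88.6, 71, 81.9 and 111 CPM, with 608, 2184 and 11550 CPM in the others (-4.88 ± 0.22 SE, adjusted p = 6.6e-16). It belongs to a list of 22 Wnt and beta-catenin targets of which 16 were lower and 3 higher.

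CPS1 was among the 2 higher genes of the list for the urea cycle. It encodes carbamoyl phosphate synthetase, the entry enzyme of the urea cycle. It was at 1777, 1784, 1917 and 2129 CPM in PLC/PRF/5 tumours and 0.425, 55.6 and 434 CPM as lowest, median and highest of the others, a difference of 5.99 ± 0.15 (SE, adjusted p = 4.9e-21), and at 1045, 1156 and 1072 CPM in PLC/PRF/5 cultures. HepG2, Hep3B and HuH7 tumours averaged 56.05, 275 and 0.803 CPM, so every other line was lower.

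In many hepatocyte genes the line difference was smaller in ovo than in vitro, and these are the genes that the HepG2-type reads touch. APOB, the apolipoprotein of liver lipoproteins, was at 98.5, 74.3, 99.5 and 171 CPM in PLC/PRF/5 tumours and 0.873, 1.33 and 1.05 CPM in its cultures, while the other tumours had 206, 16680 and 28590 CPM as lowest, median and highest. Its difference was -5.55 in ovo and -11.80 in vitro, an interaction of 6.24 ± 0.36 (SE, adjusted p = 1.0e-11). TF, SERPINA1, APOA1 and AFP, which encode transferrin, antitrypsin, apolipoprotein A-I and alpha-fetoprotein, had interactions of 5.30, 4.80, 4.40 and 4.40. In each of the 5 genes replicate 4 was the highest PLC/PRF/5 tumour. With the fitted share of the other lines subtracted, the 5 interactions were -0.50, -2.69, -3.62, -3.30 and -2.81 in the order APOB, TF, SERPINA1, APOA1, AFP. That of APOB was not called (limma, adjusted p = 0.30). Levels below the fitted share were set to 0, which held for these 5 genes in every PLC/PRF/5 tumour. The changed signs follow from that floor and say nothing on the line difference. APOA1 was also among the genes that fitted the share. For the 26 secreted proteins, 14 interactions were called higher and 4 lower as measured, and 3 and 9 after the subtraction, while all 26 stayed lower in ovo. Among 18 acute phase genes the interactions were 11 higher and 0 lower as measured, and 8 and 2 after it. As measured, 9.18% of all tested genes had a higher and 7.91% a lower interaction. Of all genes with a called interaction, 53.7% were higher as measured and 45.5% after the subtraction. Both lists hold SERPINA1, and that of secreted proteins also holds TF. The counts after the subtraction thus include values set by the floor of the subtraction.

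HNF4A, the central transcription factor of the hepatocyte, kept its interaction. It was at 154, 46.2, 162 and 175 CPM in PLC/PRF/5 tumours and 18.1, 13.7 and 15.4 CPM in its cultures, and the other tumours had 845, 1901 and 3122 CPM as lowest, median and highest. The difference was -3.80 ± 0.23 (SE, adjusted p = 2.3e-13) in ovo and -5.87 in vitro. The interaction was 2.07 ± 0.36 (SE, adjusted p = 1.6e-04), and 1.77 (adjusted p = 0.0019) after the subtraction. Replicate 2 was low, at 46.2 CPM.

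Glucose transport and glycolysis were higher in PLC/PRF/5 tumours, and more so than in cultures. Of 26 tested genes of the list, 23 were higher in PLC/PRF/5 tumours and 3 lower (median 2.02), against 13 and 3 in cultures (median 0.74). The interaction was called higher in 13 and lower in 2. Of all tested genes, 35.2% and 34.3% were higher and lower in tumours, 24.6% and 30.4% in cultures, and 9.18% and 7.91% by the interaction. 20 of the 26 were higher than in each other line taken alone (16.4% of all tested genes). 6 were higher in ovo only (2.08% of all tested genes), and 1, HK2, was reversed toward higher (0.557%). Among the 3 lower genes were PKLR and SLC2A2, the liver forms of pyruvate kinase and of the glucose transporter (-5.13 and -1.24); SLC2A2 falls outside the naming rule and was picked after its values were seen. SLC2A2 was not called by edgeR's count test (adjusted p = 0.89) or without HepG2 among the other lines (-0.03, adjusted p = 0.89). After subtraction of the other lines' share the counts of the list were the same.

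SLC2A3, the high-affinity glucose transporter GLUT3, showed the largest interaction of the 61 genes higher in ovo only that averaged at least 10 CPM in the higher of PLC/PRF/5 and the other tumours, with no overlap between them. It was at 332, 159, 250.2 and 222 CPM in the PLC/PRF/5 tumours and 0.234, 24.7 and 120.1 CPM as lowest, median and highest of the others. PLC/PRF/5 cultures had 9.51, 8.18 and 10.1 CPM. The difference was 3.71 ± 0.30 (SE, adjusted p = 4.3e-11) in ovo and -0.44 ± 0.34 (SE, adjusted p = 0.29) in vitro, and the interaction 4.14 ± 0.45 (SE, adjusted p = 2.9e-07). The other lines did not behave alike: HepG2 averaged 101 CPM in ovo and 209 CPM in vitro, Hep3B 1.61 and 1.81, and HuH7 27.7 and 3.52. SLC2A14, the neighbouring copy of this gene, was reversed, at 54.6, 28.7, 34.9 and 40.8 CPM in PLC/PRF/5 tumours and 0.234, 11.8 and 27.6 CPM in the others, with 2.26 ± 0.26 (SE, adjusted p = 4.3e-08) in ovo and -1.53 ± 0.30 (SE, adjusted p = 1.3e-04) in vitro. Its cultures averaged 1.66 CPM in PLC/PRF/5 and 45.9, 1.5 and 2.91 CPM in HepG2, Hep3B and HuH7. SLC2A1, the general transporter GLUT1, was at 1322, 397, 1080 and 983 CPM in PLC/PRF/5 tumours and 24.9, 51.4 and 451 CPM in the others; its difference was 3.32 ± 0.30 (SE, adjusted p = 4.3e-10) in ovo and 0.33 in vitro, where HepG2 averaged 8022 CPM.

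The amplicons of SLC2A3 and SLC2A14 are set side by side because they differ in 4 of 126 bases, marked in capitals, so that reads of one could have been counted for the other and the SLC2A14 values are uncertain. The SLC2A3 amplicon spans chr12:7924448-7925905 and that of SLC2A14 chr12:7819520-7821282, both on the minus strand, from exon 7 to exon 8 of 10 and wholly coding (GRCh38, GENCODE 29). The HK2 amplicon lies in exon 17 of 18, at chr2:74889299-74889459 on the plus strand, and its capitals mark the 4 of 161 bases that differ from the pseudogene HK2P1.
SLC2A3: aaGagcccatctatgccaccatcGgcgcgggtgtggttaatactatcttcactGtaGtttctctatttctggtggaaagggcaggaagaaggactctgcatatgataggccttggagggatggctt
SLC2A14: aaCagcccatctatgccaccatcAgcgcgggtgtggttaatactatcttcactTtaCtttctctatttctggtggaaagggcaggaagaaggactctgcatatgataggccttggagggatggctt
HK2: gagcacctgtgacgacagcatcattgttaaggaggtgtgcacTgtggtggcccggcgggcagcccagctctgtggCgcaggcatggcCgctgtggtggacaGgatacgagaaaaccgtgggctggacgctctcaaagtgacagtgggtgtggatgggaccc

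HK2, the hexokinase of tumours and muscle, was higher in PLC/PRF/5 tumours and lower in PLC/PRF/5 cultures than the mean of the other lines. The 4 PLC/PRF/5 tumours had 1828, 775, 1668 and 1529 CPM and the other tumours 121, 427 and 709 CPM as lowest, median and highest. PLC/PRF/5 cultures had 236, 206 and 222 CPM, and cultures of HepG2, Hep3B and HuH7 averaged 771, 774 and 206 CPM, so the cultures of HuH7, at 196.3, 214.3 and 207.8 CPM, overlapped with those of PLC/PRF/5. The difference was 1.86 ± 0.26 (SE, adjusted p = 9.8e-07) in ovo and -1.17 ± 0.30 (SE, adjusted p = 0.0021) in vitro, and the interaction 3.03 ± 0.40 (SE, adjusted p = 5.8e-06). ALDOC, the brain form of aldolase, was at 270.1, 104, 219 and 248 CPM in PLC/PRF/5 tumours and 13.9, 34.5 and 56.3 CPM in the others, higher in ovo only (2.55 ± 0.22 SE, adjusted p = 1.7e-10 in ovo and 0.23 in vitro). PGK1, phosphoglycerate kinase, was higher in both settings, at 5343, 3030, 3484 and 5422 CPM in PLC/PRF/5 tumours and 53.2, 168 and 369 CPM in the others (4.56 ± 0.29 SE, adjusted p = 6.0e-13 in ovo, 2.53 in vitro, interaction 2.04). LDHB, a subunit of lactate dehydrogenase, was higher in PLC/PRF/5 in both settings but less so in ovo, with 204, 304, 141 and 208 CPM in PLC/PRF/5 tumours, 0, 0 and 0.322 CPM in the others and 403, 525 and 422 CPM in PLC/PRF/5 cultures; its interaction of -1.14 ± 0.22 (SE, adjusted p = 5.0e-04) was not called by edgeR's or DESeq2's count test (adjusted p = 1 and 0.12). GBE1, the glycogen branching enzyme, was at 27.6 to 39.8 CPM in PLC/PRF/5 tumours and 0.858 to 3.45 CPM in the others (3.42 in ovo, 1.91 in vitro).

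Of 24 tested hypoxia-inducible genes, 20 were higher in PLC/PRF/5 tumours and 2 lower (median 1.23), against 7 and 7 in cultures (median 0.41). In cultures these counts were close to the shares of all tested genes (24.6% and 30.4%), whereas 35.2% and 34.3% of all tested genes were higher and lower in tumours. The interaction was called higher in 12 and lower in 1 (9.18% and 7.91% of all tested genes). 5 genes were higher in ovo only (2.08% of all tested genes), and 3 were reversed toward higher (0.557%). Against each other line taken alone, 11 of the 24 were higher and 1 lower (16.4% and 13.3% of all tested genes). Part of this list is shared with that of glycolysis. CA9, carbonic anhydrase IX, was at 470.2, 238, 468 and 397 CPM in PLC/PRF/5 tumours and 0.31, 1.51 and 15.4 CPM as lowest, median and highest of the others. PLC/PRF/5 cultures had 19.6, 24.7 and 21.04 CPM. The difference was 6.67 ± 0.19 (SE, adjusted p = 3.5e-20) in ovo and 2.55 in vitro, with an interaction of 4.11 ± 0.29 (SE, adjusted p = 2.1e-10). EGLN3, the prolyl hydroxylase that acts on HIF1A, was at 24.6, 16.2, 22.6 and 21.6 CPM in PLC/PRF/5 tumours and 0, 1.6 and 2.96 CPM in the others, higher in ovo only (3.42 ± 0.16 SE, adjusted p = 9.1e-16 in ovo, 0.42 in vitro). PLC/PRF/5 was higher in ovo than in vitro by 1.74, and HepG2, Hep3B and HuH7 were lower in ovo by 1.02, 1.54 and 1.24 (log2). DDIT4, an inhibitor of mTOR signalling, was at 2434 to 3973 CPM in PLC/PRF/5 tumours and 29.9 to 420.2 CPM in the others (4.29 ± 0.35 SE, adjusted p = 5.8e-11).

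EPO, erythropoietin, was among the 2 lower genes of the hypoxia list, at 1.11, 1.34, 1.93 and 2.06 CPM in PLC/PRF/5 tumours and 1.19, 119 and 191 CPM in the others, where the groups overlap. The 3 reversed genes, named after their values were seen, were BNIP3, LOX and PLOD2, with differences in ovo of 1.14, 1.00 and 1.15 and in vitro of -0.76, -2.64 and -1.56. The in ovo call of LOX was lost without Hep3B among the other lines (adjusted p = 0.12) and without PLC/PRF/5 in ovo replicate 3 (adjusted p = 0.071). That of PLOD2 was lost under 9 alternatives: edgeR's and DESeq2's count tests (adjusted p = 0.071 and 0.065), the 16 tumours alone (0.088), without Hep3B or HuH7 among the other lines (0.084 and 0.07), with GC and length trends removed (0.15), and without PLC/PRF/5 in ovo replicate 1, 2 or 4 (0.11, 0.054 and 0.065).

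**Figure D4:**
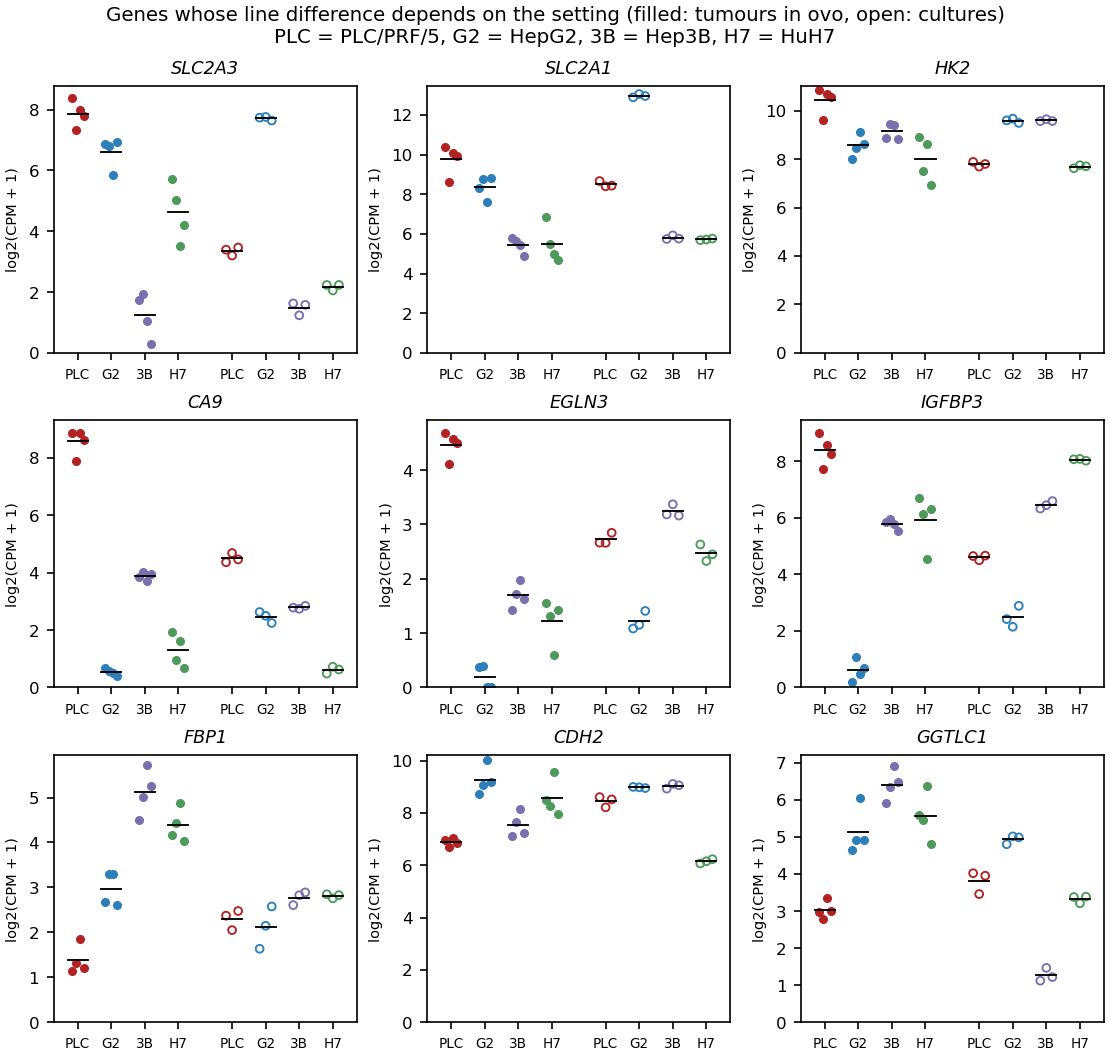
Level in each library, as log2(CPM + 1) (vertical axis), of 9 genes whose difference between PLC/PRF/5 and the other lines depended on the setting; filled points are tumours in ovo, open points cultures, and the bar is the group's mean. Among the tumours, PLC/PRF/5 is the highest group for SLC2A3, SLC2A1, HK2, CA9, EGLN3 and IGFBP3 and the lowest for FBP1, CDH2 and GGTLC1, and PLC/PRF/5 cultures lie within the range of the other cultures for all but CA9.

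The other genes named among those higher in ovo only had several roles. AREG, amphiregulin, a ligand of EGFR, was at 18.1, 18.1, 18.6 and 12.7 CPM in PLC/PRF/5 tumours and 0.318, 0.934 and 8.41 CPM as lowest, median and highest of the others (2.78 ± 0.22 SE, adjusted p = 3.7e-11 in ovo, 0.04 in vitro). PLC/PRF/5 hardly differed between its tumours and cultures (-0.02), whereas HepG2 and Hep3B were lower in ovo by 4.08 and 3.65, and HuH7 by 0.56 (log2). TRIB3, a pseudokinase induced by ATF4, was at 158, 255, 221 and 189 CPM in PLC/PRF/5 tumours and 12.9, 37.4 and 64.3 CPM in the others. Its change, in ovo minus in vitro, was -0.27 in PLC/PRF/5 and -2.64, -1.88 and -2.62 in HepG2, Hep3B and HuH7. USP36, a nucleolar deubiquitinase, and CDT1, a licensing factor of DNA replication, were higher in PLC/PRF/5 tumours than in its cultures by 1.81 and 1.60. Their ranges were 37.7 to 50.3 and 120.2 to 171 CPM in PLC/PRF/5 tumours and 0.269 to 18.9 and 7.26 to 87.5 CPM in the others.

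TPPP, a tubulin polymerisation protein, and SSR4 and ERP29, proteins of the endoplasmic reticulum, were low genes. TPPP ranged from 7.54 to 14.7 CPM in PLC/PRF/5 tumours and from 0 to 6.04 CPM in the others, SSR4 from 14.3 to 20.5 and 0.537 to 11.5 CPM, and ERP29 from 18.9 to 45.9 and 0.858 to 16.9 CPM. That the groups do not overlap was a condition for naming these 3 genes. The interaction of ERP29, 2.02 ± 0.61 (SE, adjusted p = 0.022), was lost without PLC/PRF/5 in ovo replicate 2 (adjusted p = 0.064), the tumour with 45.9 CPM, without Hep3B among the other lines (adjusted p = 0.087), and without PLC/PRF/5 in vitro replicate 1 or 2 (adjusted p = 0.069 and 0.053).

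Among the 73 genes reversed toward higher, 5 averaged at least 10 CPM in the higher of the 2 groups of tumours and had no overlap between them: IGFBP3, SLC2A14, CXCL16, HK2 and PPARGC1A. IGFBP3, a binding protein of insulin-like growth factors, was at 512, 213, 381 and 303 CPM in PLC/PRF/5 tumours and 0.15, 49.2 and 104 CPM as lowest, median and highest of the others. In cultures it was at 24.1, 21.6 and 24.3 CPM in PLC/PRF/5, and at means of 4.72, 86.9 and 265 CPM in HepG2, Hep3B and HuH7. The difference was 4.29 ± 0.26 (SE, adjusted p = 1.6e-13) in ovo and -1.06 ± 0.30 (SE, adjusted p = 0.0039) in vitro. It was higher in ovo in PLC/PRF/5 by 3.79 and lower in ovo in all 3 other lines, by 1.86, 0.68 and 2.13 (log2). CXCL16, a chemokine held on the cell surface, was at 32.8, 31.1, 21.4 and 25.6 CPM in PLC/PRF/5 tumours and 2.42, 9.18 and 18.96 CPM in the others, with 1.49 ± 0.30 (SE, adjusted p = 1.3e-04) in ovo and -1.92 ± 0.35 (SE, adjusted p = 4.5e-05) in vitro; all 3 other lines were lower in ovo than in vitro. PPARGC1A, a coactivator of mitochondrial and gluconeogenic genes, was at 24.6, 36.4, 32.3 and 34.5 CPM and 6.45, 12.7 and 21.4 CPM in the same order (1.23 ± 0.14 SE, adjusted p = 2.2e-08 in ovo, -0.86 ± 0.16 (SE, adjusted p = 6.2e-05) in vitro). PLC/PRF/5 cultures had 6.99, 8.56 and 7.25 CPM and those of HepG2, Hep3B and HuH7 averaged 44.2, 8.66 and 7.64 CPM, so that of the 3 lines only HepG2 was clearly above PLC/PRF/5 in culture.

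Among the 47 genes reversed toward lower, 3 met the same conditions, with the other tumours as the higher group: GGTLC1, ARMC9 and PRR4. GGTLC1, a copy of the gamma-glutamyltransferase light chain, was at 6.84, 5.93, 9.17 and 7.03 CPM in PLC/PRF/5 tumours and 23.98, 52.98 and 120.1 CPM in the others (-2.68 ± 0.23 SE, adjusted p = 2.1e-10 in ovo, 0.63 ± 0.27 (SE, adjusted p = 0.048) in vitro). Cultures averaged 13.2 CPM in PLC/PRF/5 and 29.7, 1.42 and 9.04 CPM in HepG2, Hep3B and HuH7, so HepG2 was above PLC/PRF/5 there too. Its amplicon has 120 of 124 bases in common with GGT1, GGT2 and GGTLC2, and that of GGTLC2 has 90 of 91 in common with GGT1, so both are uncertain as to the gene. GGTLC2 was lower in ovo only, at 1.21 to 2.04 CPM in PLC/PRF/5 tumours and 5.57 to 23.9 CPM in the others. ARMC9, a protein of the cilium base, was at 22.3, 21.4, 18.01 and 21.97 CPM and 25.2, 76.2 and 95.7 CPM (-1.67 ± 0.16 SE, adjusted p = 9.5e-10 in ovo, 0.55 ± 0.18 (SE, adjusted p = 0.012) in vitro). Its cultures averaged 46.9 CPM in PLC/PRF/5, close to the 46.9 CPM of HepG2, and 23.1 and 28.96 CPM in Hep3B and HuH7. PRR4, a secreted proline-rich protein, ranged from 19.2 to 24.4 CPM in PLC/PRF/5 tumours and from 28.9 to 75.3 CPM in the others (-1.06 in ovo, 0.98 in vitro).

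Genes lower in ovo only included enzymes and adhesion proteins. FBP1, fructose bisphosphatase, which opposes glycolysis in gluconeogenesis, was at 1.21, 1.5, 2.6 and 1.3 CPM in PLC/PRF/5 tumours and 5.11, 18.8 and 51.6 CPM as lowest, median and highest of the others. In cultures the means were 3.96 CPM in PLC/PRF/5 and 3.5, 5.86 and 6.02 CPM in HepG2, Hep3B and HuH7. The difference was -2.78 ± 0.21 (SE, adjusted p = 1.6e-11) in ovo and -0.27 ± 0.24 (SE, adjusted p = 0.37) in vitro, and all 3 other lines were higher in ovo. CDH2, N-cadherin, was at 123, 102, 130.2 and 113 CPM in PLC/PRF/5 tumours and 139, 334 and 1030 CPM in the others (-1.57 ± 0.22 SE, adjusted p = 9.6e-07 in ovo, 0.39 in vitro); its interaction of -1.97 was not called without HuH7 among the other lines (-0.95, adjusted p = 0.069). ALCAM, another adhesion molecule, was at 145, 80.9, 161 and 154 CPM and 281, 518 and 939 CPM (-1.93 ± 0.20 SE, adjusted p = 5.9e-09 in ovo). LASP1, an actin-binding protein, and APBB2, an adaptor of the amyloid precursor protein, ranged from 41.8 to 71.8 and 32.4 to 49.9 CPM in PLC/PRF/5 tumours and from 124 to 362 and 89.8 to 235 CPM in the others. MRAS, a RAS-like GTPase, HOGA1, an enzyme of hydroxyproline breakdown, FGD3, an exchange factor of CDC42, and LURAP1L had differences in ovo of -2.54, -2.23, -1.89 and -2.79 and in vitro of -0.29, -0.18, -0.08 and -0.04.

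Cholesterol synthesis and uptake had opposite balances of calls in the 2 settings. Of 24 tested genes, 13 were higher and 2 lower in PLC/PRF/5 tumours (median 0.58), whereas 2 were higher and 12 lower in its cultures (median -0.71). The shares of all tested genes were 35.2% and 34.3% in tumours, and 24.6% and 30.4% in cultures. Against each other line taken alone, 4 of the 24 were higher and 2 lower in tumours (16.4% and 13.3% of all tested genes). The interaction was called higher in 12 and lower in 0, of 24, where 9.18% and 7.91% of all tested genes were. This depended on HuH7: without that line the interaction was called higher in 5 of the 24 (median 0.32, against 1.08 with it), and 9 were higher and 5 lower in ovo. INSIG1, which holds SREBF2 in the endoplasmic reticulum, was at 57.8, 23.4, 61.95 and 40.1 CPM in PLC/PRF/5 tumours and 0, 2.33 and 15.2 CPM in the others. Its interaction of 2.09 ± 0.44 (SE, adjusted p = 0.0013) was lost without HuH7 (adjusted p = 0.27), and was not called by edgeR's count test (adjusted p = 1.00); no read of it was counted in HepG2 in either setting. CYP51A1, lanosterol demethylase, was at 5.93, 4.34, 3.96 and 4.87 CPM and 0, 0.392 and 3.5 CPM, a low gene whose interaction was lost in edgeR's and DESeq2's count tests (adjusted p = 0.085 and 0.058).

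NSDHL, a sterol dehydrogenase, named after its values were seen, was among the 3 reversed genes of the cholesterol list, with differences of 0.75 ± 0.19 (SE, adjusted p = 0.0014) in ovo and -0.71 ± 0.22 (SE, adjusted p = 0.0089) in vitro. Its in ovo call was kept under every alternative that was run. TM7SF2, a sterol reductase, was lower in both settings, at 7.02 to 9.85 CPM in PLC/PRF/5 tumours and 30.4 to 1297 CPM in the others. SREBF1, the regulator of fatty acid synthesis, was at 71.7, 66.5, 105 and 70.99 CPM and 4.08, 12.8 and 60.7 CPM (2.33 ± 0.39 SE, adjusted p = 1.1e-05 in ovo, 0.40 in vitro). Its interaction of 1.93 ± 0.60 (SE, adjusted p = 0.025) was lost in edgeR's count test (adjusted p = 0.052), without HepG2 among the other lines (adjusted p = 0.053), without PLC/PRF/5 in ovo replicate 3 (adjusted p = 0.059) and without PLC/PRF/5 in vitro replicate 1 or 2 (adjusted p = 0.052 and 0.083). Of 22 genes of fatty acid synthesis and storage, 6 were higher and 8 lower in PLC/PRF/5 tumours, and of 23 genes of fatty acid oxidation 5 and 8. The counts for synthesis and storage were near the shares of all tested genes (35.2% and 34.3%).

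In the unfolded protein response, 7 of 19 genes were higher and 6 lower in PLC/PRF/5 tumours, against 2 and 12 in its cultures, and the interaction was called higher in 7 and lower in 0. The tumour counts equal the shares of all tested genes (35.2% and 34.3%) to within 1 gene, those in cultures stand beside 24.6% and 30.4%, and those of the interaction beside 9.18% and 7.91%. ATF6, a sensor of the endoplasmic reticulum, was at 126, 151, 119 and 135 CPM in PLC/PRF/5 tumours and 29.6, 45.6 and 50.6 CPM in the others (1.60 ± 0.13 SE, adjusted p = 4.2e-11), while XBP1, the factor downstream of IRE1, was at 134, 225, 149 and 175 and 394, 559.8 and 715 CPM (-1.73 ± 0.11 SE, adjusted p = 8.9e-13). Neither pair overlapped. Of 22 genes of the ATF4 and amino acid response, 16 were higher and 1 lower in PLC/PRF/5 tumours (median 1.44) and 11 and 1 in cultures (median 0.74), with 5 interactions higher and 0 lower. SLC7A5, the large neutral amino acid transporter, was at 4804, 7711, 2439 and 5877 CPM in PLC/PRF/5 tumours and 44.7, 357 and 1266 CPM in the others (4.17 ± 0.37 SE, adjusted p = 3.1e-10). STC2, a secreted glycoprotein induced by ATF4, was at 827, 843, 698 and 835 and 13.1, 70.1 and 238 CPM (3.71 ± 0.44 SE, adjusted p = 6.4e-08).

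**Figure D5:**
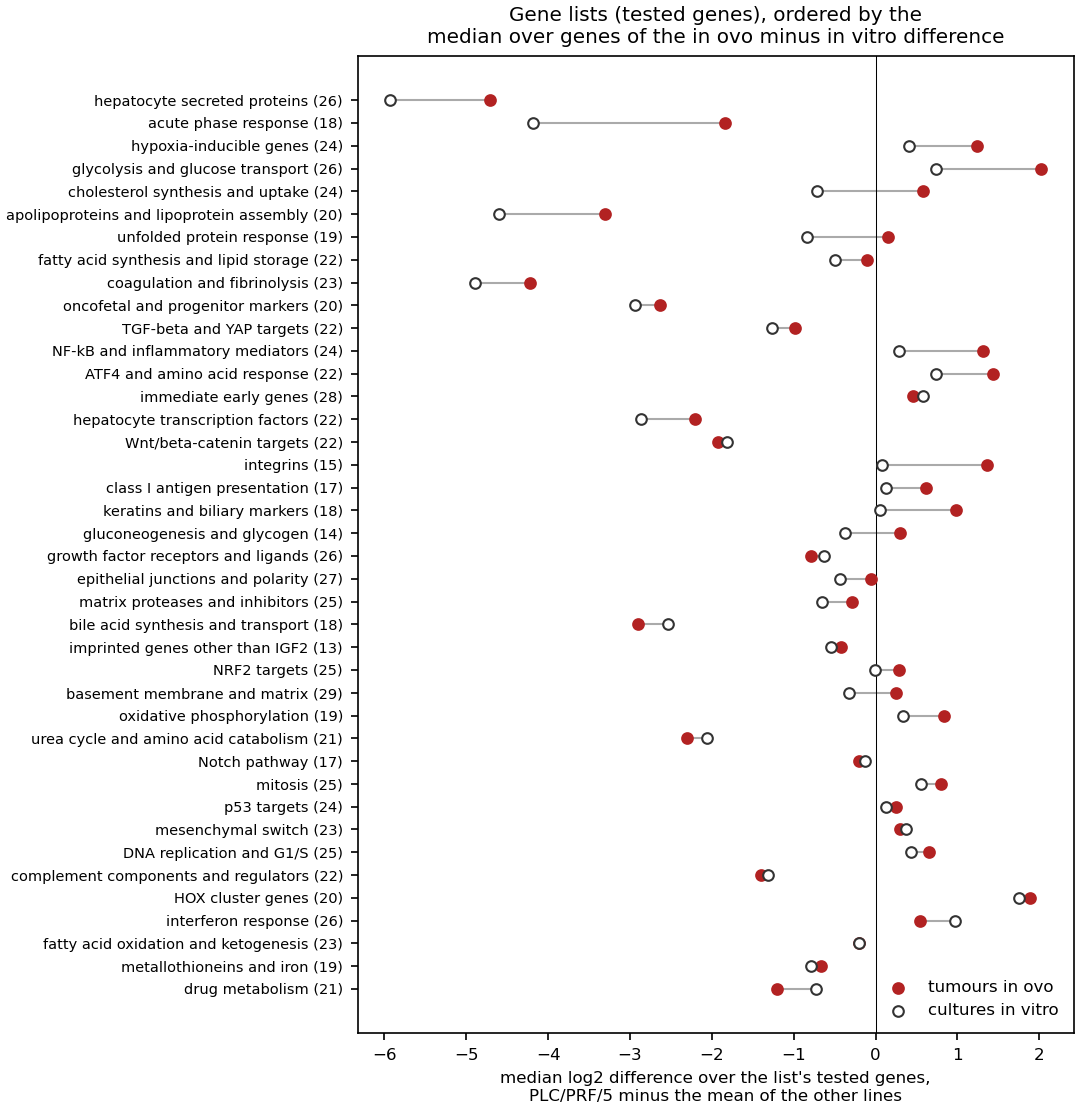
Median log2 difference between PLC/PRF/5 and the mean of the other lines over the tested genes of each list (number in brackets), for tumours (filled) and cultures (open); lists are ordered by the median over genes of the in ovo minus in vitro difference. Glycolysis, hypoxia and cholesterol lie further right in tumours than in cultures, whereas the hepatocyte lists lie far left in both.

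Inflammatory genes of PLC/PRF/5 tumours differed in both directions. Of 24 tested NF-kB genes and inflammatory mediators, 14 were higher and 7 lower (median 1.31), against 11 and 9 in cultures (median 0.29), with 9 interactions higher and 1 lower. The shares of all tested genes were 35.2% and 34.3% in tumours, 24.6% and 30.4% in cultures, and 9.18% and 7.91% by the interaction. LCN2, the iron-binding lipocalin, was at 142, 445, 169 and 178 CPM in PLC/PRF/5 tumours and 0, 0.359 and 5.38 CPM as lowest, median and highest of the others. Replicate 2 was far above the other 3 PLC/PRF/5 tumours. The difference was 6.94 ± 0.25 (SE, adjusted p = 4.3e-18) in ovo, and the interaction of 2.33 ± 0.38 (SE, adjusted p = 8.3e-05) was not called by edgeR's or DESeq2's count test (adjusted p = 0.50 and 0.36). BIRC3, an inhibitor of apoptosis induced by NF-kB, was at 876, 619, 556 and 732 CPM in PLC/PRF/5 tumours and 2.13, 4.76 and 12.4 CPM in the others, with differences of 6.73 in ovo and 6.62 in vitro and an interaction of 0.11 ± 0.26 (SE, adjusted p = 0.82) that was not called. The cytokines TNF and IL6 were at 49.4, 17.04, 44.3 and 30.9 CPM and 22.3, 13.9, 17.6 and 12.4 CPM in PLC/PRF/5 tumours and at 0.15 to 8.6 and 0 to 2.42 CPM in the others. ICAM1, an adhesion molecule for leukocytes and also a target of NF-kB, was lower, at 5.43, 1.75, 3.51 and 2.92 CPM in PLC/PRF/5 tumours and 42.04, 72.5 and 171 CPM in the others (-4.11 ± 0.21 SE, adjusted p = 4.0e-15). Among 26 interferon response genes, 14 were higher and 6 lower, and OAS1, an antiviral sensor, was at 79.02, 54.6, 97.96 and 114 and 0.17, 1.63 and 8.88 CPM. Among 17 genes of class I antigen presentation, 10 were higher and 5 lower.

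Growth genes showed single members far above the other lines beside lists with modest shifts. MYC was at 1141, 1470, 1200 and 959.9 CPM in PLC/PRF/5 tumours and 20.4, 89.4 and 154 CPM as lowest, median and highest of the others (4.22 ± 0.26 SE, adjusted p = 2.3e-13 in ovo, with an interaction of 1.72). NR4A1, an immediate early nuclear receptor, was at 467, 296, 559 and 505 and 7.79, 14.5 and 19.03 CPM; its interaction of 1.52 ± 0.31 (SE, adjusted p = 8.7e-04) was not called without HepG2 among the other lines (adjusted p = 0.097). JAG2, a Notch ligand, was at 234, 198, 217 and 219 and 0, 3.91 and 5.9 CPM, with an interaction of 2.10 ± 0.23 (SE, adjusted p = 3.3e-07); of 17 Notch pathway genes 5 were higher and 8 lower. Of 28 immediate early genes 14 were higher and 8 lower. Of 25 mitosis genes 15 were higher and 2 lower (median 0.80), and of 25 genes of DNA replication 12 and 3 (median 0.65), with at most 1 interaction called in either direction in each, where 35.2% and 34.3% of all tested genes were higher and lower in tumours. Against each other line taken alone, 6 mitosis genes were higher and 1 lower, and 7 and 1 of DNA replication. The shares of all tested genes were 16.4% and 13.3% by that measure. RRM1, the large subunit of ribonucleotide reductase, was at 307, 352, 249 and 288 CPM in PLC/PRF/5 tumours and 6.005, 17.5 and 23.8 CPM in the others (4.21 ± 0.26 SE, adjusted p = 2.8e-13). CCNB1 and CDK1, the mitotic cyclin and its kinase, were at 34.5 to 45.7 and 6.34 to 18.6 CPM in PLC/PRF/5 tumours and 1.07 to 30.1 and 0 to 7.95 CPM in the others. MKI67, the marker of cycling cells, was at 157, 128, 53.5 and 135 CPM and 9.27, 71.9 and 150.2 CPM and was not called (0.92 ± 0.48 SE, adjusted p = 0.09). It was called under some alternatives, among them without PLC/PRF/5 in ovo replicate 3, the lowest, or without HuH7 in ovo replicate 4 (adjusted p = 0.037 and 0.034). Limma also called MKI67 with replicate number or tumour letter as a block (adjusted p = 0.027 and 0.0041), and without the tumours numbered 3 (0.0021). Of 19 genes of oxidative phosphorylation, 10 were higher and 1 lower (median 0.83).

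The remaining genes chosen for their known role in liver tumours differed in part by single lines. CDKN1A, a p53 target and inhibitor of the cell cycle, was at 462, 412, 513 and 459.6 CPM in PLC/PRF/5 tumours and 6.8, 46.8 and 448 CPM in the others (2.93 ± 0.29 SE, adjusted p = 1.9e-09). Of 24 p53 targets 10 were higher and 6 lower, counts near the shares of all tested genes (35.2% and 34.3%). EGFR was at 694, 644, 605 and 599 CPM in PLC/PRF/5 tumours and averaged 61.4, 678 and 1141 CPM in HepG2, Hep3B and HuH7 tumours, so that its difference of 0.82 ± 0.12 (SE, adjusted p = 2.3e-06) became -0.45 (adjusted p = 0.0038) without HepG2. MET, the receptor of hepatocyte growth factor, was at 493, 317, 515 and 480.4 CPM and 157, 454 and 908 CPM and was not called (0.10 ± 0.25 SE, adjusted p = 0.74), although it was called higher with total counts (0.70). EPCAM, an epithelial and progenitor marker, was at 60.3, 43.7, 47.6 and 46.1 CPM and 34.8, 149 and 266 CPM (-1.33 ± 0.29 SE, adjusted p = 3.1e-04; not called with total counts, adjusted p = 0.088). SPP1, osteopontin, was at 0.433 to 0.919 CPM in PLC/PRF/5 tumours and 0 to 107 CPM in the others (-3.54), TTR, transthyretin, at 0.503 to 2.16 and 6.22 to 1116 CPM (-5.94), and PGLYRP2, a peptidoglycan amidase of liver, at 1.005 to 3.14 and 1.11 to 1473 CPM (-4.70). NQO1, a target of NRF2, was at 41.9 to 60.7 and 2.96 to 92.5 CPM (1.70), and VIM, vimentin, at 2.6 to 7.02 and 0 to 8.34 CPM (1.20). For SPP1, PGLYRP2, NQO1 and VIM, PLC/PRF/5 tumours overlapped with those of a single line. These were Hep3B for SPP1 (0 to 3.33 CPM), HuH7 for PGLYRP2 (1.11 to 2.7 CPM) and VIM (3.47 to 8.34 CPM), and HepG2 for NQO1 (33.2 to 92.5 CPM). CYP7A1, which starts bile acid synthesis from cholesterol, was at 0 to 0.541 CPM in PLC/PRF/5 tumours and 0 to 36.1 CPM in the others, a difference of -1.34 ± 0.16 (SE, adjusted p = 5.6e-08) that was 0.14 (adjusted p = 0.48) without HepG2, whose tumours averaged 25.1 CPM, and was not called by edgeR's count test (adjusted p = 0.073).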

How the data were processed

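RNA of 16 tumours and 12 cultures was read with a targeted amplicon kit (DriverMap) from 500 ng of total RNA. For each amplicon the authors deposited a signal, not a raw count, scaled so that every library totals 500000; alignment was to hg38 per the submitters' processing notes, and the aligner is not given in the sources used here. Doubling turned the deposited values into CPM. The deposited signal steps gave back whole reads: at least 99.9684% of values per library lay within 0.01 of a whole read. 1 damaged cell (KRT18 in the second PLC/PRF/5 tumour) was restored from its library's total, and 37 duplicated or date-like symbols were renamed.

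Groups came from the labels. Limma 3.58.1 (limma-trend, R 4.3.3) was fitted to log2(CPM + 1) after TMM scaling (edgeR 4.0.16), with 8 groups, 20 residual degrees of freedom and Benjamini-Hochberg adjustment; this test replaced a count test because the values are scaled. Genes under about 10 reads were left out by edgeR's filter, so 13100 of 18961 were tested. EdgeR's quasi-likelihood test on the recovered reads, an alternative, called 4544 genes higher and 4101 lower in PLC/PRF/5 tumours. The fit was also run on simulated data, and the outcome is not given here. The other alternatives were DESeq2 1.42.0, other scalings, filters and pseudocounts, blocks by replicate number and tumour letter, each line or library left out, and 3 chosen after seeing the data: the share of other lines subtracted, GC and length trends removed, and the tumours numbered 3 left out. Shares were fitted by non-negative least squares (scipy 1.17.1).

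Members and gene lists were chosen with earlier results of these data known. Named genes were 30 key genes of liver tumours (29 tested), the 10 highest and 10 lowest in ovo, the 10 largest interactions each way among the in ovo only and reversed genes (all averaging at least 10 CPM in the higher of PLC/PRF/5 and the other tumours, with no overlap between the 2), and up to 4 called members per list; exceptions are marked. Not every gene the rule gives is described, and some are not reported here. The level of 3 reads covers counting error only, and SEs and SDs rest on the spread between libraries.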

Additional observations from a re-analysis of the deposited data

Results flagged for a closer look

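The difference between PLC/PRF/5 and the other lines itself differed between tumours and cultures in 50 of the 52 named genes whose interaction is given; most of these were named because their interaction is large, so the share is no result. Values are log2 differences in ovo minus those in vitro, from limma. Among genes of glycolysis and hypoxia, they were SLC2A3 (4.14), SLC2A14 (3.79), SLC2A1 (2.99), HK2 (3.03), ALDOC (2.33), PGK1 (2.04), GBE1 (1.51), LDHB (-1.14), CA9 (4.11) and EGLN3 (3.01). Among lipid and sterol genes, they were INSIG1 (2.09), CYP51A1 (1.85), SREBF1 (1.93) and PPARGC1A (2.09). Among hepatocyte genes, they were HNF4A (2.07), SERPINA1 (4.80), TF (5.30), AFP (4.40), APOB (6.24) and APOA1 (4.40). Among secreted and signalling proteins, they were CCL22 (7.72), MSLN (2.75), COL15A1 (3.11), AREG (2.74), IGFBP3 (5.35), CXCL16 (3.41), LCN2 (2.33), MYC (1.72), JAG2 (2.10) and NR4A1 (1.52). Among other genes higher in ovo only, they were TPPP (2.32), SSR4 (2.18), TRIB3 (2.11), USP36 (2.05), ERP29 (2.02) and CDT1 (1.99). Among genes lower in ovo only, they were GGTLC2 (-2.91), LURAP1L (-2.75), FBP1 (-2.51), MRAS (-2.25), HOGA1 (-2.05), CDH2 (-1.97), FGD3 (-1.81), ALCAM (-1.80), LASP1 (-1.77) and APBB2 (-1.75). Among further genes, they were GGTLC1 (-3.31), ARMC9 (-2.22), PRR4 (-2.04) and KRT7 (-1.33). Those of COL15A1, MSLN, LDHB, LCN2, KRT7, INSIG1, CYP51A1 and SREBF1 were not called by edgeR's count test (adjusted p = 0.0517 to 1).

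A single tumour stood apart from the other 3 PLC/PRF/5 tumours in 8 of 114 named genes (7.02%), by Dixon's test at the 95% level; chance gives about 1 in 20 such groups. Replicate 3 was high for BACE2 at 684.4 CPM and for SREBF1 at 104.6 CPM, and low for STC2 at 697.5 CPM. Replicate 2 was high for ERP29 at 45.94 CPM and for LCN2 at 445.3 CPM, and low for HNF4A at 46.19 CPM. Replicate 4 was low for AREG at 12.66 CPM and high for AFP at 238.5 CPM; it is also the tumour with the highest share of HepG2-type reads, 1.68%.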

How the results depend on the processing

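Counts are given as higher and lower genes, in that order. Asking for at least 2-fold left 2713 and 2777 in tumours, 1876 and 2529 in cultures, 790 and 633 interactions, 131 and 133 in ovo only, 13 and 3 reversed, and 1310 and 1124 against each line. EdgeR's count test gave 614 lower interactions and 159 and 133 in ovo only; DESeq2's gave 162 higher in ovo only and 91 reversed lower. Total counts gave 172 lower in ovo only and 1103 lower than each line, DESeq2 size factors 79 reversed lower, removal of GC and length trends 74 reversed lower, and HepG2 left out 404 lower in ovo only. Without the tumours numbered 3, interactions were 1849 and 1683 and reversed genes 124 and 91. The causes were not tested. Leaving out 1 library gave 4136 to 4808 and 4211 to 4583 in tumours, 2744 to 3476 and 3536 to 4229 in cultures, 855 to 1587 and 773 to 1233 interactions, 190 to 439 and 200 to 328 in ovo only, 54 to 92 and 26 to 62 reversed, and 1926 to 2265 and 1587 to 1802 against each line. With the 16 tumours fitted alone the calls were 3841 and 3745.

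Replicate numbers as a whole did not pair the libraries: same-numbered tumours of different lines correlated at -0.2 to 0.86 (15 of 24 pairs over 0.1; 5 of 16 tumours correlated best with their own number), and same-numbered cultures at -0.32 to 0.15 (2 of 18 pairs over 0.1). The 4 tumours numbered 3, which also share the letter D, did deviate together: all 6 of their pairs were over 0.1 (0.12 to 0.86), against 9 of the 18 pairs of the other numbers. With the replicate block the calls were 4817 and 4595 in tumours, 1383 and 1165 interactions, 344 and 298 in ovo only, 79 and 52 reversed, and 2326 and 1846 against each line. With tumour letter as a block, 449 genes were higher in ovo only.

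Single genes changed direction under 2 alternatives. Without HepG2, EGFR was at -0.45 and CYP7A1 at 0.14. With the other lines' share subtracted, the interactions were -3.62 for SERPINA1, -2.69 for TF, -2.81 for AFP, -0.50 for APOB and -3.30 for APOA1. The signs of these 5 values were set by the floor of that subtraction. Reads per library limit the low genes: 3 reads stood for up to 0.493 CPM before TMM scaling and up to 0.806 CPM after it in the other lines' tumours, and differences below that level were not detectable.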

Other observations

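Olfactory receptor amplicons, which hepatoma cells are not known to use, were read more often in tumours than in cultures of every line. Of 392 such amplicons, 23.8% ± 15.1 (SD, n = 4) had at least 1 read in PLC/PRF/5 tumours; the means were 27.7%, 19.8% and 26.2% in HepG2, Hep3B and HuH7 tumours, and 2.72% to 6.8% in the cultures of the 4 lines. Across tested genes, the difference in ovo correlated with the GC content of the amplicon at a Spearman rho of -0.241 and with its length at 0.253, against -0.138 and 0.0803 for the difference in vitro; genes are not independent replicates and no test is given. The part of these properties in the results was not tested beyond the removal of both trends.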
